A study of Homo sapiens with 34 samples.

Results

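DE(a) is the opening day of an endoderm protocol for human pluripotent stem cells (hPSCs), and it was compared with undifferentiated cells across all genes. The members were taken from the sample labels: 2 DE(a) libraries collected at 24 h and 2 control libraries, 4 of the 34 libraries of the series. All come from wild-type ESI017, a long-established line of human embryonic stem cells, grown on Matrigel as bulk cultures. DE(a) cells were in E6 medium with 100 ng/ml activin A, the ligand that stands in for Nodal, and 2 µM CHIR99021 (CHIR), a GSK3 inhibitor that switches on canonical Wnt signalling. Neither bFGF nor BMP4 was added. The control cells stayed in mTeSR PLUS, a maintenance medium that itself supplies bFGF and TGF-β, without added activin or CHIR. Their labels give 48 h, against 24 h for DE(a), so culture time, medium and the added factors cannot be told apart in this comparison. For reference, 3 other primitive streak (PS) treatments were collected at 24 h, with 2 libraries each. Anterior PS (APS) medium held activin at 30 ng/ml, bFGF at 20 ng/ml and CHIR at 4 µM. Mid PS (MPS) medium had the same activin and bFGF, CHIR at 6 µM and BMP4 at 40 ng/ml, and posterior PS (PPS) medium left out activin from this mixture.

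In the embryo, Nodal and Wnt signals turn epiblast cells into PS. Cells passing through the streak lose epithelial adhesion, replace E-cadherin by N-cadherin and become mesoderm or definitive endoderm, with endoderm arising where Nodal signalling is strong. T-box factors such as TBXT and EOMES and the homeobox factors MIXL1 and GSC are switched on first, and the endoderm factors SOX17 and FOXA2 follow.

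Values are estimated counts of reads per gene, given as counts scaled to the library total (CPM). The 4 libraries held between 18634352 and 22145632 counts, so that 3 counts, taken as the detection floor of a library, corresponded to 0.135 to 0.161 CPM. The floor covers counting error only. The study describes the 2 replicates of a condition as biological, and the labels do not say how the cultures were separated. All replicate 1 libraries were deposited in a first table and all replicate 2 libraries in a repeat table. Replicates differed beyond sampling noise: the correlation of log2 CPM was 0.9722 between the DE(a) libraries and 0.9766 between the controls, and 973 and 690 genes, respectively, were more than 2-fold apart. Mitochondrially encoded transcripts took 3.55% and 7.99% of the counts in DE(a) replicates 1 and 2, against 4.41% and 5.3% in the controls, and the share was higher in replicate 2 also in APS, MPS and PPS. The part of this difference in the results below was not tested.

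The labels call the treatment a definitive endoderm step, and its defining markers were checked. Summed over POU5F1, NANOG, SOX2, ZFP42, DPPA4 and L1TD1, pluripotency markers stood at 4548 and 4522 CPM in the controls and at 2426 and 2500 CPM in DE(a). The PS markers TBXT, MIXL1, EOMES, GSC and EVX1 summed to 1.63 and 1.86 CPM in the controls and to 2519 and 2701 CPM in DE(a). The 6 definitive endoderm markers (SOX17, FOXA2, GATA6, GATA4, CXCR4 and HHEX) summed to 2.03 and 2.61 CPM in the controls and to 362 and 277 CPM in DE(a). Of these, CXCR4, the chemokine receptor used to sort endoderm, was at 1.04 and 1.38 CPM in the controls and at 1.76 and 0.805 CPM in DE(a). The summed PS and endoderm markers were thus far above the controls, CXCR4 was not, and the summed pluripotency markers were lower but present in both DE(a) libraries. The endoderm sum did not set DE(a) apart from APS (321 and 339 CPM) or MPS (503 and 403 CPM), and it was 147 and 110 CPM in PPS. GATA6 made up 207 and 189 CPM of it in DE(a) and had 315 and 248 CPM in MPS. SOX17, FOXA2 and HHEX were higher in both DE(a) libraries than in any APS, MPS or PPS library. Bulk RNA does not tell fewer cells of a type from less RNA per cell.

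Many genes differed between DE(a) and the control, in both directions. Of 17895 genes tested with edgeR's quasi-likelihood test, 3395 had a Benjamini-Hochberg adjusted p under 0.05 (called below), which is 19.0% of those tested. Of these, 1842 rose (10.3%) and 1553 fell (8.68%), and over all tested genes the median log2 fold change was 0.027. The fitted change exceeded 2-fold in 1141 rises and 1026 falls and 16-fold in 247 rises and 105 falls, where the fitted value of genes near the floor depends on the prior count. Among the genes that rose, 164 were at or under the floor in both control libraries, and 71 of those that fell were at or under it in both DE(a) libraries. For such genes only a lower bound of the fold is given. In 3383 of the 3395 called genes the DE(a) libraries lay outside the range of the controls, which also held for 55.7% of all genes tested. Without control replicate 2 the number called was 2216, 1209 up and 1007 down. With only the 4 libraries fitted it was 3229, and falls then outnumbered rises, at 1561 up and 1668 down.

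**Figure D1:**
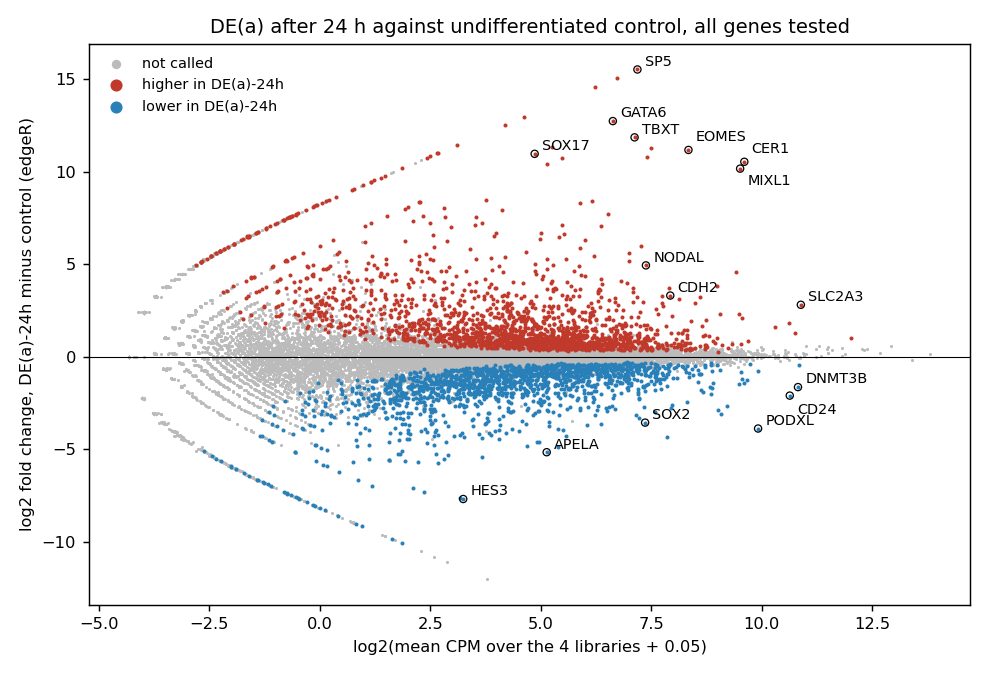
Log2 fold change of DE(a) minus control against log2(mean CPM of the 4 libraries + 0.05), with 1 point per gene tested, in red for the 1842 that rose, blue for the 1553 that fell and grey for those not called. The diagonal edges are genes with no counts in 1 of the conditions, whose fitted change is set by the prior count.

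Nearly all listed PS genes rose, most of them from below 3 CPM. TBXT (Brachyury, chr6:166157656-166168700 on the minus strand, GRCh38), the T-box factor that marks the streak, was at 0.0452 and 0.106 CPM in the controls and at 259 and 298 CPM in DE(a), at least 1888-fold higher. MIXL1, a homeobox factor of mesendoderm (chr1:226223618-226227060), rose from 1.22 and 1.49 CPM to 1368 and 1549 CPM (log2 fold change 10.17 ± 0.62 (SE), adjusted p = 8.47e-11). EOMES, the T-box factor required for endoderm, rose from 0.316 and 0.266 CPM to 666 and 631 CPM (11.18 ± 0.96, adjusted p = 1.68e-08). The replicates of each of these genes were close, and the gap between the conditions was far larger than their spread. GSC, the organizer homeobox factor, had 1 read in the controls and stood at 82.5 and 68.7 CPM in DE(a), at least 513-fold higher. EVX1, a homeobox factor of the streak, had no read in either control and 144 and 154 CPM in DE(a), at least 1009-fold higher.

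Signals made by the streak rose with these factors. NODAL itself, the ligand whose receptors activin uses, rose from 10.3 and 12.1 CPM to 356 and 288 CPM (4.94 ± 0.41, adjusted p = 1.01e-08). WNT3, the Wnt ligand that starts the mouse streak, rose from 2.82 and 1.91 CPM to 121 and 114 CPM (5.72 ± 0.33, adjusted p = 1.5e-11), summed over its 3 gene identifiers, between which the authors' counting splits its reads. WNT3A and WNT8A appeared at 4.93 and 6.23 CPM and at 1.71 and 2.47 CPM, from the floor. Some ligands of the FGF family rose relative to a control medium that supplies bFGF, while E6 had no FGF added. FGF17 went from 0.135 and 0.16 CPM to 415 and 307 CPM. FGF4 rose from 3.48 and 5.48 CPM to 90.0 and 116 CPM, and FGF8 from 1.97 and 1.81 CPM to 27.2 and 27.6 CPM. FGF2, the gene of bFGF, was called lower, a call lost without DE(a) replicate 1 or control replicate 2. APLNR, the apelin receptor of early mesendoderm, went from 0.361 and 0.425 CPM to 141 and 93.9 CPM (8.3 ± 0.58). In the list of 22 PS and mesendoderm genes, 21 rose and 0 fell (95.5% called, against 19.0% of all genes). The exception was FOXH1, the DNA-binding partner of the activin-activated SMADs, with 94.7 and 72.3 CPM in the controls and 142 and 117 CPM in DE(a) (adjusted p = 0.169).

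**Figure D2:**
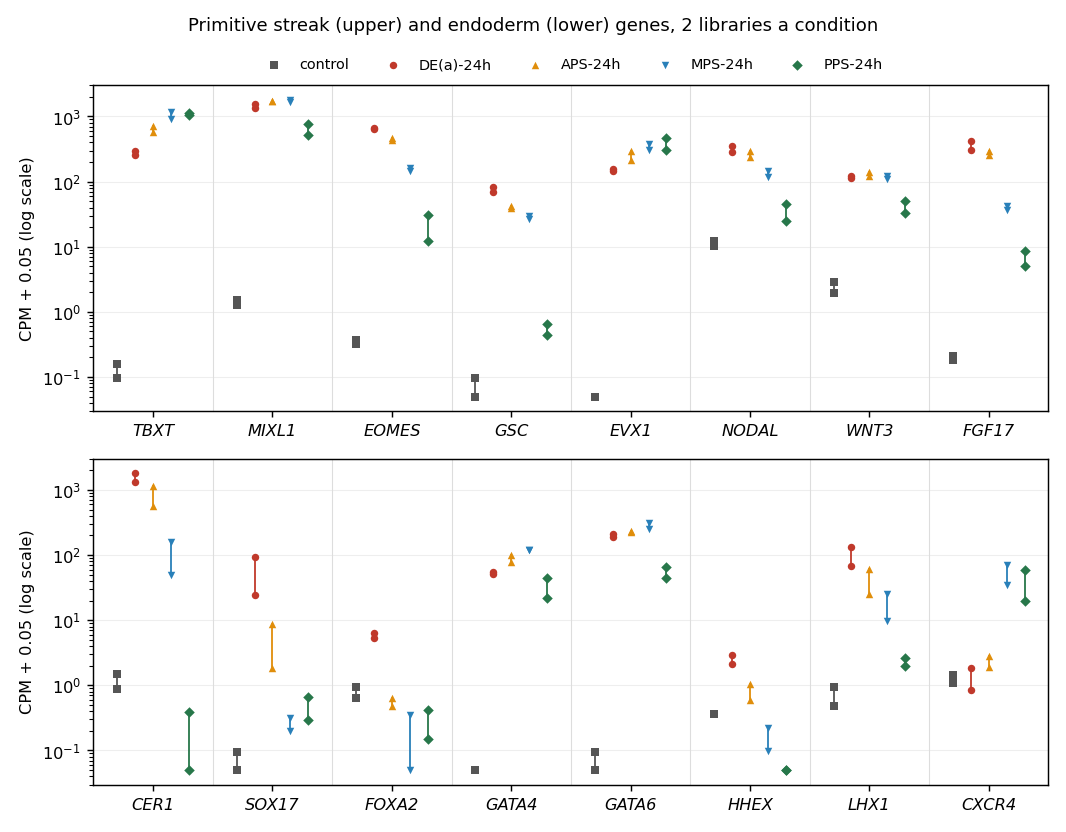
CPM + 0.05 on a log scale of 8 PS genes (upper row) and 8 endoderm genes (lower row) in the control, DE(a), APS, MPS and PPS libraries, with 1 point per library and a line joining the 2 replicates (WNT3, GATA4 and LHX1 summed over their identifiers). DE(a) lies far above the control for all genes but FOXA2, HHEX and CXCR4, and SOX17 spans 24.3 to 91.7 CPM between the DE(a) replicates.

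Because these genes moved together, their promoters (RefSeq, GRCh38.p14, from 250 bases before to 50 after the gene's start) were searched on both strands for the core motifs of the DNA-binding partners of the added signals: CTTTGAT of TCF/LEF, the nuclear arm of Wnt, and TGTGNATT of FOXH1. The matches shown do not overlap each other. The PS list's risers with a promoter entry were 14 of 21. The FOXH1 letters were in 4 of these 14 (28.6%), among them MIXL1, SP5 and GDF3, against 1.65% of the 12272 tested genes with an entry and 3.27% of all 27305 promoters. The TCF/LEF letters were in 2 of 14 (14.3%), MIXL1 and SP5, against 1.46% and 2.64%. Of the Nodal and activin list, 13 of 17 risers had an entry and 3 held the FOXH1 letters (CER1, GDF3 and MIXL1). The T-box letters TCACACCT, which 0.982% of all promoters hold, were in 0 of the 14 and 0 of the 13. Of the Wnt list, 13 of 20 risers had an entry. The TCF/LEF letters were in 1 of them (7.69%), the FOXH1 letters in 1 and the T-box letters in 0. Over all 1377 risers with an entry, the FOXH1 letters were in 30 (2.18%) and the TCF/LEF letters in 23 (1.67%). All tested genes with an entry stood at 1.65% and 1.46%. The PS and Nodal lists share MIXL1 and GDF3 and were chosen with earlier results of these data known. These counts are descriptions of a short window. The stretches are shown on the gene's own strand, with the matched letters in capitals, reverse complements included. Distances are counted from the RefSeq start, which for MIXL1 lies downstream of the gene start printed above.
MIXL1, TCF/LEF match 76 bases before the start (chr1:226223573-226223609): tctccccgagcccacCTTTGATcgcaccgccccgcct
MIXL1, FOXH1 match 249 bases before the start (chr1:226223414-226223437): aTGTGGATTgcgccgtccgggcgg
SP5, TCF/LEF match 109 bases before the start (chr2:170715213-170715249): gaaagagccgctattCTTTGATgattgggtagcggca
SP5, FOXH1 match 154 bases before the start (chr2:170715168-170715205): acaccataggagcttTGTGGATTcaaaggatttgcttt
CER1, FOXH1 match 154 bases before the start (chr9:14722865-14722902, minus strand): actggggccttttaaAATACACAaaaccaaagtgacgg
GDF3, FOXH1 match 56 bases before the start (chr12:7695809-7695846, minus strand): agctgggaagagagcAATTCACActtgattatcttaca
MIXL1 and SP5 held both sets of letters. Only listed genes that rose were searched for stretches to show, so the rise of those shown was fixed by that choice. A link between the letters and the rise was not tested.

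Most Nodal and activin genes rose, antagonists and inhibitors of the pathway among them. CER1 (Cerberus), a secreted Nodal, BMP and Wnt antagonist of anterior endoderm, rose from 0.813 and 1.44 CPM to 1795 and 1320 CPM (10.54 ± 0.86, adjusted p = 3.86e-08). PMEPA1, an intracellular inhibitor of the pathway, rose from 25.9 and 27.4 CPM to 122 and 116 CPM (2.26 ± 0.2), and SMAD7, the inhibitory SMAD, from 32.1 and 28.8 CPM to 65.1 and 53.3 CPM (1.05 ± 0.2). The Lefty genes, secreted Nodal inhibitors already on in hPSCs, rose less. LEFTY2 went from 7.79 and 9.21 CPM to 26.8 and 24.3 CPM (1.68 ± 0.38), with adjusted p = 0.0513 without control replicate 1. LEFTY1 went from 11 and 14.3 CPM to 25.2 and 19.1 CPM (0.91 ± 0.29), with adjusted p of 0.0526 to 0.238 without either control or DE(a) replicate 1. SKIL, a repressor of SMAD-driven transcription, fell from 262 and 319 CPM to 95.6 and 134 CPM (-1.24 ± 0.19). INHBA, whose product forms activin A, was also called lower. That call was lost without DE(a) replicate 2, where its log2 fold change was -3.57. The co-receptor TDGF1 (CRIPTO) had 738 and 877 CPM in the controls and 680 and 609 CPM in DE(a) (adjusted p = 0.772). Of 28 listed Nodal and activin genes, 17 rose and 4 fell (75.0% called, against 19.0% of all genes). The list's median log2 fold change was 0.98.

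The endoderm genes included strong rises, genes not called and a few falls. SOX17, the endoderm SRY-box factor, had 1 read in the controls and 91.7 and 24.3 CPM in DE(a), at least 393-fold higher (adjusted p = 0.000261), and its 2 DE(a) libraries differed almost 4-fold. GATA6 was at 207 and 189 CPM in DE(a), at least 1343-fold above the control, and GATA4 at 51.6 and 55.2 CPM (both identifiers summed), at least 362-fold. Both are zinc-finger factors of endoderm and cardiac mesoderm. LHX1, a LIM factor of the organizer and anterior endoderm, rose from 0.903 and 0.425 CPM to 132 and 68.1 CPM (7.29 ± 0.61, both identifiers summed). FOXA2, the pioneer factor of endoderm, was low: 0.587 and 0.904 CPM in the controls and 6.24 and 5.32 CPM in DE(a) (3.05 ± 1.02, adjusted p = 0.042). Leaving out any of the 4 libraries took FOXA2 past the threshold, with adjusted p from 0.0899 to 0.231. HHEX, an anterior endoderm homeobox factor, rose from 0.316 and 0.319 CPM to 2.9 and 2.05 CPM (3.03 ± 0.55). FOXA1 and HNF4A, which mark later endoderm, were at or near the floor in all 4 libraries. KIT, often used with CXCR4 to score endoderm, was already present in hPSCs, with 35.5 and 37.3 CPM in the controls and 26.4 and 30.7 CPM in DE(a) (adjusted p = 0.81).
Of 32 listed endoderm genes, 15 rose, 3 fell and 14 were not called (56.2% called, against 19.0% of all genes). The falls were in TMPRSS2, from 20.5 and 19.0 CPM to 7.85 and 5.21 CPM, RASSF10, from 3.39 and 1.97 CPM to 0.832 and 0.751 CPM, and SHISA2, from 21.0 and 17.2 CPM to 6.18 and 3.77 CPM. None of these 3 calls held on leaving out DE(a) replicate 2 (adjusted p 0.125 to 0.156) or control replicate 1 (0.0733 to 0.216), nor did that of RASSF10 without DE(a) replicate 1 (0.0984) or of TMPRSS2 without control replicate 2 (0.0563). CYP26A1, the retinoic acid hydroxylase, was among the risers, from 2.3 and 1.01 CPM to 168 and 82.4 CPM (6.31 ± 0.68). Of 15 organizer, node and notochord genes tested, 8 rose and 5 fell, with 7 called in all without control replicate 2. The share called with all libraries was 86.7%, against 19.0% of all genes. The risers were GSC, CER1, DKK1, LHX1 and FOXA2, which are also in the PS or endoderm lists, and NOG, FST and SHH. Leaving out single libraries ended the call of NOG (adjusted p 0.144 to 0.295 without either control or DE(a) replicate 2), of FST (0.0739 to 0.229 without any library) and of SHH (0.131 without control replicate 2). The genes that fell included HESX1, from 12.0 and 15.5 CPM to 0.57 and 0.483 CPM (-4.6 ± 0.71), and the ciliary factor FOXJ1, from 8.35 and 4.79 CPM to 0.311 and 0 CPM (-5.24 ± 1.14).

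Wnt target genes rose at 2 µM CHIR. SP5, a zinc-finger target of β-catenin, had no read in the controls and 286 and 296 CPM in DE(a), at least 1976-fold higher. AXIN2, the feedback scaffold that is the standard readout of the pathway, rose from 45.7 and 39.2 CPM to 135 and 180 CPM (1.99 ± 0.33, adjusted p = 0.000108). LEF1 rose from 0.948 and 1.12 CPM to 38.5 and 61.3 CPM (5.69 ± 0.4) and TCF7 from 12.7 and 12.8 CPM to 78.4 and 87.0 CPM (2.79 ± 0.28), while the other 2 TCF factors fell: TCF7L1, mainly a repressor in hPSCs, from 259 and 213 CPM to 70.1 and 49.2 CPM (-1.89 ± 0.23), and TCF7L2 from 85.9 and 88.0 CPM to 24.7 and 27.3 CPM (-1.64 ± 0.26). All 4 members of the TCF/LEF family thus moved, in opposite pairs. Secreted Wnt inhibitors were also split. DKK1 rose from 0.135 and 0.266 CPM to 253 and 424 CPM (10.81 ± 0.75). DKK4 went from no read to 200 and 223 CPM, at least 1434-fold higher, with an SE of 3.65 on the log2 scale and an adjusted p of 0.00677, which became 0.066 and 0.0613 without control replicate 1 and 2. NOTUM rose from 0.271 and 0.0532 CPM to 26.9 and 18.5 CPM (7.1 ± 1.18), and SFRP1, abundant in hPSCs, fell from 518 and 368 CPM to 24.7 and 16.6 CPM (-4.32 ± 0.23, adjusted p = 1.12e-11). CDX1, a posterior homeobox target of Wnt, was at 10.2 and 14.9 CPM from no read, at least 85.0-fold higher. Of the 31 Wnt genes listed, 20 rose and 6 fell (83.9% called, against 19.0% of all genes).

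Receptors and pathway components of activin, BMP and Wnt were called about as often as all genes. Of 26 listed activin, BMP and Wnt receptors and pathway components, 4 rose and 2 fell, 23.1% against the 19.0% of all genes, with 3 called without control replicate 2. CTNNB1 (β-catenin) had 458 and 438 CPM in the controls and 487 and 481 CPM in DE(a) (adjusted p = 0.23), and the activin type I receptor ACVR1B 31.5 and 23.7 CPM against 41.6 and 30.7 CPM (adjusted p = 0.0543). The Frizzled receptor FZD8 rose from 13.3 and 7.3 CPM to 51.7 and 23.8 CPM (1.96 ± 0.34), the library with the highest value being DE(a) replicate 1.

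Some FGF and BMP readouts moved between the control medium, which supplies bFGF, and E6 with neither ligand added. Among 28 FGF ligands and ERK feedback genes, 8 rose and 5 fell (46.4% called, against 19.0% of all genes). The ERK phosphatases DUSP4 (7.81 and 10.4 to 49.8 and 29.8 CPM, 2.23 ± 0.29) and DUSP5 (24.1 and 22.5 to 155 and 123 CPM, 2.67 ± 0.28) rose. DUSP6, the usual feedback readout, had 80.2 and 65.4 CPM in the controls and 92.8 and 58.5 CPM in DE(a) (adjusted p = 0.869). The receptors FGFR1 and FGFR2 fell, FGFR1 from 600 and 512 CPM to 203 and 199 CPM (-1.37 ± 0.2) and FGFR2 from 118 and 122 CPM to 31.7 and 30.7 CPM (-1.85 ± 0.34). IER3, an immediate early gene, rose from 7.56 and 6.78 CPM to 292 and 205 CPM when summed over its 3 identifiers (5.21 ± 0.29), whereas its GENCODE v44 identifier alone was not called.
Of 24 BMP targets and modulators, 14 rose and 0 fell (58.3% called, against 19.0% of all genes). BMP2, a BMP ligand, rose from 6.21 and 4.63 CPM to 256 and 241 CPM (5.61 ± 0.34, adjusted p = 8.47e-11), and BMP4 stood at 5.06 and 4.15 CPM in the controls and 4.57 and 4.28 CPM in DE(a) (adjusted p = 0.982). The homeobox targets MSX1 and MSX2 reached 19.1 and 26.6 CPM and 32.2 and 24.7 CPM, from 1.22 CPM or less. SMAD6, the BMP feedback inhibitor, rose from 6.34 and 5.27 CPM to 60.6 and 46.0 CPM (3.29 ± 0.24) and ID2 from 14.0 and 12.5 CPM to 52.2 and 56.0 CPM (2.13 ± 0.27). ID1, a direct target, had 66.3 and 62.4 CPM in the controls and 121 and 62.5 CPM in DE(a) (adjusted p = 0.431), and its DE(a) replicate 2 overlapped the controls. ID3 had 78.1 and 58.4 CPM against 156 and 90.7 CPM (adjusted p = 0.101).

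About as many listed pluripotency genes fell as were not called. SOX2, the neural and pluripotency factor, fell from 331 and 278 CPM to 28.3 and 19.9 CPM (-3.56 ± 0.69, adjusted p = 0.000565). POU5F1 (OCT4), summed over its 4 identifiers, went from 1625 and 1348 CPM to 1077 and 837 CPM (-0.54 ± 0.18, adjusted p = 0.0358), and NANOG, which Nodal sustains, had 171 and 188 CPM in the controls and 156 and 154 CPM in DE(a) (-0.12 ± 0.44, adjusted p = 0.922). Of the 3 core factors, only SOX2 fell by more than 2-fold. PRDM14 fell from 140 and 136 CPM to 19.3 and 15.9 CPM (-2.88 ± 0.34), FOXD3 from 40.7 and 29.0 CPM to 2.75 and 0.966 CPM (-4.13 ± 0.71) and USP44, a deubiquitinase of hPSCs, from 331 and 354 CPM to 38.4 and 41.1 CPM (-3.01 ± 0.36). PODXL, the sialomucin that carries the TRA-1 surface epitopes, fell from 1821 and 1816 CPM to 121 and 111 CPM (-3.88 ± 0.65), and the surface glycoprotein CD24 from 2485 and 2732 CPM to 554 and 588 CPM (-2.1 ± 0.19). Both were among the 5 largest falls in CPM. DNMT3B, the de novo DNA methyltransferase, was another, from 2931 and 2632 CPM to 852 and 821 CPM (-1.64 ± 0.17). Of 36 listed pluripotency genes, 18 fell and 1 rose (52.8% called, against 19.0% of all genes). The riser was GDF3, a Nodal-related ligand, from 12.5 and 18.1 CPM to 64.5 and 59.8 CPM (2.12 ± 0.51, adjusted p = 0.00485, and 0.0801 without control replicate 1). OTX2 and ZIC2, shared with anterior neural tissue, were not called, with 87.2 and 81.1 CPM and 260 and 257 CPM in DE(a).

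**Figure D3:**
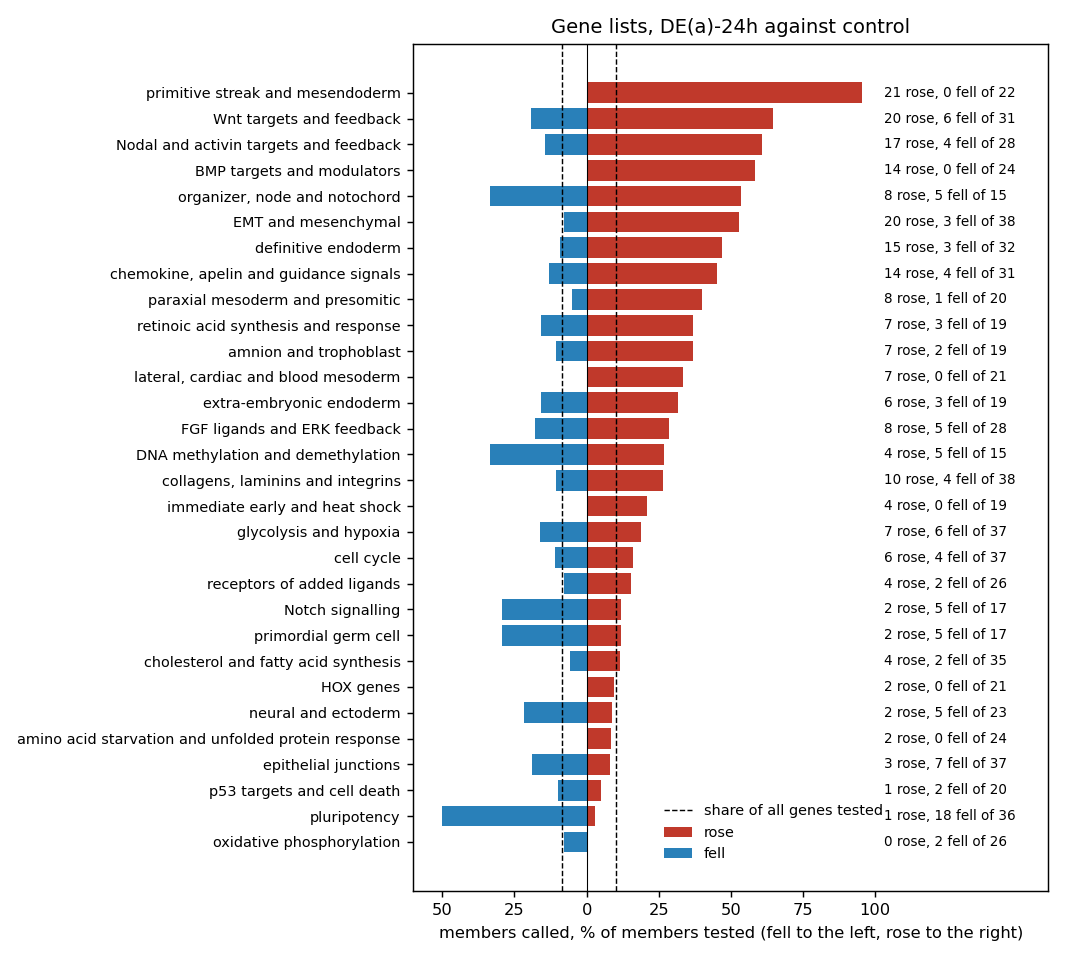
Share of the tested members of each of 30 gene lists that rose (red, to the right) or fell (blue, to the left) in DE(a) against the control, in percent, with the counts at the right and dashed lines at the shares over all genes tested, 10.3% and 8.68%. The PS list stands at the top with 21 of 22 members up, and the pluripotency list has the most falls, 18 of 36.

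The E-cadherin gene did not pass the test, while the N-cadherin gene rose clearly. CDH1 (E-CAD) had 303 and 299 CPM in the controls and 169 and 172 CPM in DE(a) (-0.72 ± 0.26, adjusted p = 0.054). CDH2 (N-CAD) rose from 46.9 and 48.2 CPM to 425 and 455 CPM (3.31 ± 0.16, adjusted p = 3.83e-12). Both genes had replicates within a narrow range. The DE(a) libraries lay outside the range of the controls for each, which also held for 55.7% of all genes tested. CDH3 (P-cadherin) had 177 and 149 CPM against 166 and 129 CPM (adjusted p = 0.928), and CDH11, a mesenchymal cadherin, rose from 8.97 and 11.6 CPM to 49.8 and 62.4 CPM (2.55 ± 0.4). SNAI1 (Snail), the repressor of CDH1, rose from 4.61 and 3.55 CPM to 35.3 and 26.7 CPM (3.02 ± 0.27, adjusted p = 2.7e-08), as did ZEB2 from 0.632 and 0 CPM to 8.19 and 9.29 CPM (4.76 ± 0.59) and ZEB1 from 0.271 and 0.532 CPM to 1.97 and 3.33 CPM (2.82 ± 0.35). SNAI2 had 0.768 and 1.12 CPM against 2.91 and 3.34 CPM (adjusted p = 0.0514). Vimentin (VIM), the mesenchymal intermediate filament, rose from 91.5 and 99.4 CPM to 515 and 303 CPM (2.19 ± 0.33), and TAGLN, an actin-binding protein, from 94.3 and 84.0 CPM to 815 and 455 CPM (2.93 ± 0.34). Fibronectin (FN1) had 176 and 205 CPM against 215 and 217 CPM (adjusted p = 0.598). The protocadherin PCDH10 rose from 4.87 and 5.26 CPM to 325 and 279 CPM (5.99 ± 0.31) and PCDH1 fell from 308 and 258 CPM to 53 and 28.6 CPM (-2.7 ± 0.52).
Of 38 EMT and mesenchymal genes, 20 rose and 3 fell (60.5% called, against 19.0% of all genes).

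Of 37 epithelial junction genes tested, 3 rose and 7 fell (27.0%, against 19.0% of all genes, with a median log2 fold change of -0.12). With a fit of the 4 libraries alone 17 of them were called, and 6 without DE(a) replicate 2 or control replicate 1. EPCAM had 192 and 218 CPM in the controls and 114 and 133 CPM in DE(a) (adjusted p = 0.098). CLDN6, a claudin of hPSCs, had 642 and 524 CPM against 540 and 370 CPM (adjusted p = 0.434). The falls included CLDN3, from 7.78 and 6.24 CPM to 0.518 and 0.537 CPM (-3.62 ± 0.79), and cingulin (CGN), from 104 and 82.0 CPM to 46.8 and 34.2 CPM (-1.1 ± 0.21). KRT8, a simple epithelial keratin, rose from 231 and 174 CPM to 762 and 433 CPM (1.66 ± 0.31), and desmoplakin (DSP), of desmosomes, from 105 and 93.4 CPM to 237 and 287 CPM (1.5 ± 0.27). KRT8 and DSP are epithelial genes and moved with the mesenchymal ones.

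**Figure D4:**
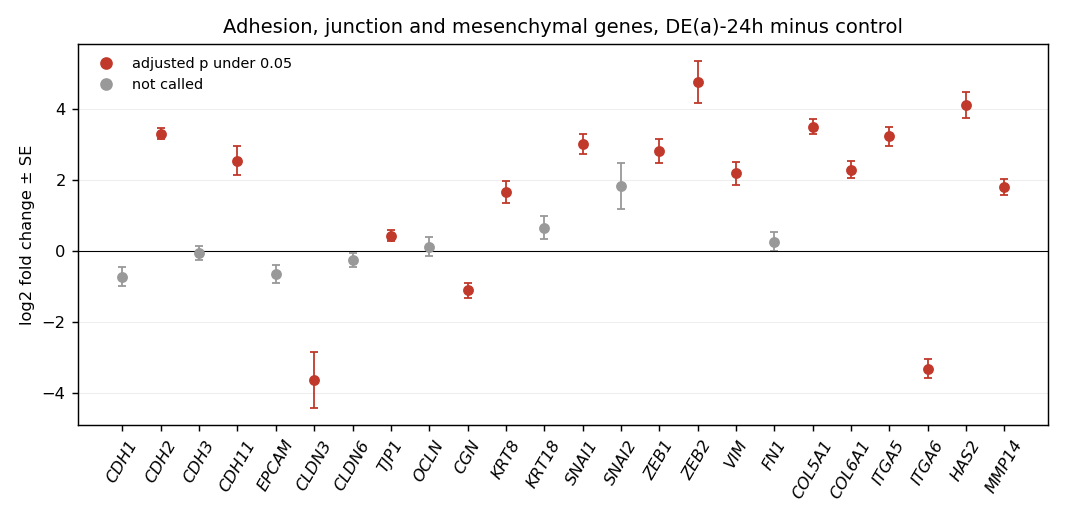
Log2 fold change of DE(a) minus control with its standard error for 24 adhesion, junction and mesenchymal genes, in red where the adjusted p was under 0.05 and in grey where it was not (TJP1 and OCLN summed over their identifiers). CDH2 stands at 3.31 and CDH1 at -0.72.

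Integrin subunits moved in opposite directions and several matrix genes rose. Integrin α5 (ITGA5), the fibronectin receptor subunit, rose from 17.4 and 15.8 CPM to 187 and 108 CPM (3.24 ± 0.27), and integrin α6 (ITGA6), a laminin receptor subunit, fell from 265 and 283 CPM to 25.6 and 25.9 CPM (-3.31 ± 0.27, adjusted p = 7.03e-09). COL5A1 rose from 26.7 and 19.6 CPM to 260 and 235 CPM (3.51 ± 0.2) and COL6A1 from 195 and 181 CPM to 875 and 862 CPM (2.3 ± 0.24). HAS2, the hyaluronan synthase of migrating mesoderm, rose from 14.9 and 11.1 CPM to 222 and 203 CPM (4.12 ± 0.36), and the membrane protease MMP14 from 66.7 and 45.8 CPM to 215 and 154 CPM (1.81 ± 0.23). Of 38 collagens, laminins and integrins, 10 rose and 4 fell (36.8% called, against 19.0% of all genes).

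Guidance and chemokine genes changed as well, with 14 of 31 up and 4 down (58.1% called, against 19.0% of all genes). FLRT3, an adhesion molecule that endoderm and mesoderm precursors use, rose from 0.813 and 0.798 CPM to 50.7 and 74.6 CPM (6.37 ± 0.34), PLXNA2, a semaphorin receptor, from 4.46 and 2.66 CPM to 155 and 133 CPM (5.42 ± 0.4), and netrin 1 (NTN1) from 6.29 and 6.61 CPM to 135 and 110 CPM (4.34 ± 0.5). The Eph receptors EPHA2 (46.6 and 37.3 to 448 and 323 CPM), EPHA4 (11.2 and 10.2 to 94.2 and 97.0 CPM) and EPHB3 (0.903 and 0.904 to 44.6 and 25.9 CPM) rose by 3.3 ± 0.31, 3.26 ± 0.35 and 5.37 ± 0.73. Genes of the apelin pathway moved in opposite directions. The receptor APLNR, which was low in the controls, rose as given above. APELA (ELABELA), a ligand of this receptor, fell from 51.2 and 85.4 CPM to 0.986 and 2.58 CPM (-5.16 ± 1). CXCL12 fell from 83.6 and 71.1 CPM to 20.9 and 22.5 CPM (-1.73 ± 0.27). Of 19 retinoic acid genes tested, 7 rose and 3 fell, with 6 called in all without control replicate 2. With all libraries the share called in this list was 52.6%, against 19.0% of all genes. LRAT, which esterifies retinol, fell from 66.3 and 92.4 CPM to 4 and 5.74 CPM (-3.93 ± 0.64). The retinal reductase DHRS3 fell from 21.8 and 19.6 CPM to 2.09 and 0.806 CPM (-3.74 ± 0.7), while CYP26A1 rose as given above.

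Of 35 cholesterol and fatty acid genes, 4 rose and 2 fell (17.1%, against 19.0% of all genes), with 3 called without either DE(a) library and 2 without control replicate 1. Of 26 nuclear genes of oxidative phosphorylation 0 rose and 2 fell (7.69%), with 1 called without DE(a) replicate 1 and 0 without any of the other 3 libraries. In the cell cycle list of 37 genes, 6 rose and 4 fell (27.0%), and the number called was 5 without control replicate 1 and 6 without any of the other libraries or with only the 4 libraries fitted. MKI67, the proliferation antigen, had 261 and 319 CPM in the controls and 219 and 336 CPM in DE(a) (adjusted p = 0.96). Of the cyclins, CCND1 rose from 192 and 164 CPM to 399 and 427 CPM (1.31 ± 0.17) and CCND2 from 72.8 and 50.04 CPM to 188 and 168 CPM (1.64 ± 0.25). In the list of amino acid starvation and unfolded protein genes 2 of 24 rose (8.33%, with 4 called without DE(a) replicate 2), both subunits of a large amino acid transporter: SLC7A5 from 757 and 690 CPM to 2664 and 2209 CPM (1.85 ± 0.25) and SLC3A2 from 388 and 327 CPM to 776 and 556 CPM (0.99 ± 0.18). Of 20 p53 targets, 1 rose and 2 fell, a smaller share than the 19.0% of all genes (with 5 called without DE(a) replicate 1). The glucose transporter SLC2A3 (GLUT3) rose from 483 and 517 CPM to 3382 and 3185 CPM (2.81 ± 0.29, adjusted p = 2.37e-07), the largest gain in CPM among the called genes. Of 37 glycolysis and hypoxia genes, 7 rose and 6 fell (35.1%, against 19.0% of all genes), and GAPDH was not called (adjusted p = 0.958). The next largest gains in CPM were in the cytoplasmic actin gene ACTG1, from 2935 and 2720 CPM to 6324 and 4552 CPM (1.04 ± 0.2), SLC7A5, CER1 and MIXL1. Such gains also depend on transcript length.

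The 10 largest falls on the log2 scale among genes with at least 10 CPM in the controls were HES3, SORBS2, HTR1D, CEND1, CRB2, FEZF1, BTBD17, SOX21, APELA and LINGO1. HES3, a neural HES factor, fell from 24.1 and 13.5 CPM to 0.156 and 0 CPM, at least 119-fold, although DESeq2 did not call it. Further falls were the adaptor SORBS2 from 17.8 CPM in both controls to 0.156 and 0 CPM, at least 112-fold, and the serotonin receptor HTR1D from 10.7 and 9.52 CPM to 1 read in each library, at least 64.0-fold. FEZF1, a forebrain zinc-finger factor, fell from 26.4 and 23.1 CPM to 0.518 and 0.537 CPM (-5.44 ± 0.74), SOX21 from 13.2 and 10.8 CPM to 0.57 and 0 CPM (-5.26 ± 1.09) and CEND1, a neural cell cycle exit protein, from 13.1 and 11.6 CPM to 0.156 and 0.268 CPM (-5.73 ± 0.97). CRB2, the Crumbs polarity protein needed for cells to leave the streak, fell from 14.8 and 12.3 CPM to 0.0522 and 0.483 CPM (-5.55 ± 0.68). LINGO1 fell from 94.1 and 67.3 CPM to 3.47 and 1.56 CPM (-4.9 ± 0.42) and BTBD17 from 19.2 and 9.94 CPM to 0.571 and 0.107 CPM (-5.3 ± 1.22, adjusted p = 0.00379, and 0.0619 without DE(a) replicate 2). In CPM the largest falls beside CD24, DNMT3B and PODXL were in DPYSL3, a collapsin response mediator, from 1007 and 1062 CPM to 145 and 157 CPM (-2.68 ± 0.25), and AASS, the first enzyme of lysine breakdown, from 871 and 1077 CPM to 85.7 and 129 CPM (-3.08 ± 0.18). In the neural and ectoderm list 5 of 23 tested genes fell and 2 rose (30.4% called, against 19.0% of all genes). The Notch list had 2 up and 5 down of 17 (41.2%, against 19.0% of all genes), with 4 called without DE(a) replicate 2 and 3 without control replicate 1, and HES1 was among the risers, from 7.77 and 7.23 CPM to 42.3 and 43.7 CPM (2.62 ± 0.57).

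Markers of other lineages were low. The paraxial mesoderm markers TBX6, MSGN1 and CDX2 summed to 6.59 and 9.73 CPM in DE(a) and to 1.81 and 0.585 CPM in the controls, and MSGN1 was at the floor. TBX6 rose from 1.72 and 0.585 CPM to 5.76 and 5.54 CPM (2.35 ± 0.31). The lateral mesoderm markers HAND1, ISL1 and FOXF1 summed to 6.26 and 3.72 CPM, from 0.452 and 0.16 CPM. Of the lists, paraxial mesoderm had 8 up and 1 down of 20, lateral mesoderm 7 up of 21 (3 without DE(a) replicate 1, 4 without control replicate 1 and 2 without control replicate 2), amnion and trophoblast 7 up and 2 down of 19, extra-embryonic endoderm 6 up and 3 down of 19, and primordial germ cells 2 up and 5 down of 17. The shares called with all libraries were, in this order, 45.0%, 33.3%, 47.4%, 47.4% and 41.2%, against 19.0% of all genes. Many of these genes were at the floor in the controls, and the part of cells of these types in the results was not tested. Of 21 HOX genes of the 4 clusters tested, 2 rose (9.52%) and 0 fell, with 1 called without DE(a) replicate 2. The 5 amnion and trophoblast markers summed to 3.88 and 4.95 CPM in the controls and to 9.9 and 9.25 CPM in DE(a), the 4 neural markers to 14.4 and 11.3 CPM and to 8.07 and 3.01 CPM, and the 5 extra-embryonic endoderm markers to 8.7 and 10.9 CPM and to 13.5 and 16 CPM, with 3 of these 5 at the floor in both DE(a) libraries. Over all 30 lists, 261 of 658 tested genes were called (39.7%), 170 up and 91 down, against 19.0% of all genes. In the other lists, 4 rose and 5 fell of 15 DNA methylation genes. The 9 called were a far larger share of this list than the 19.0% of all genes. Of 19 immediate early and heat shock genes, 4 rose (21.1%). The lists were chosen around processes of this differentiation.

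Since each of the PS treatments is compared with the same control, DE(a) was also set directly against each of them. The fewest genes differed from APS, the treatment that also has activin and no BMP4: 131 were called (0.732%), 22 higher (0.123%) and 109 lower (0.609%) in DE(a). Against MPS 1605 genes were called (8.97%), 600 higher (3.35%) and 1005 lower (5.62%), and against PPS, which lacks activin, 3749 (20.9%), 1832 higher (10.2%) and 1917 lower (10.7%), a balance that turned without DE(a) replicate 2 (1447 higher and 1389 lower) and without PPS replicate 1 (1695 and 1628). The numbers depended on single libraries, against APS with 38 called without DE(a) replicate 1, 81 without DE(a) replicate 2 and 60 without APS replicate 2. Against MPS it was 967 without DE(a) replicate 1, 928 without MPS replicate 1 and 1031 without MPS replicate 2, and against PPS 2190 without DE(a) replicate 1 and 2317 without PPS replicate 2. EOMES, CER1 and NODAL were each higher in DE(a) than in MPS and PPS but not called against APS. CER1, for example, had 1160 and 570 CPM in APS (adjusted p = 0.887), 156 and 49.4 CPM in MPS and 0.346 and 0 CPM in PPS. SOX17 had 8.62 and 1.79 CPM in APS (3.5 ± 1, adjusted p = 0.178) and at most 0.602 CPM in the MPS and PPS libraries. TBXT was lower in DE(a) than in MPS, at 920 and 1152 CPM there (-1.89, adjusted p = 0.00302), and than in PPS, at 1041 and 1125 CPM (-1.88, adjusted p = 0.0017), and was not called against APS, at 571 and 716 CPM (adjusted p = 0.314). For MIXL1, only the difference from PPS passed (1.26, adjusted p = 0.0294). CDH2 was not called against any of the 3. CDH1 had 149 and 194 CPM in APS (0.01 ± 0.26, adjusted p = 1), and it was lower in DE(a) than in MPS (-0.87, adjusted p = 0.0348) and PPS (-2.13, adjusted p = 4.74e-06), where it reached 717 and 861 CPM.

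A set of 101 genes differed in the same direction from all 3 other treatments, 17 higher in DE(a) (0.0950% of those tested) and 84 lower (0.469%). Without DE(a) replicate 1 it numbered 34 (3 higher), without DE(a) replicate 2 63 (14 higher), without APS replicate 1 72 (7 higher) and without APS replicate 2 48 (4 higher). At a fold of at least 2, 0 of the 23 remaining genes were higher. Among those with at least 10 CPM in a condition at 24 h, the 5 furthest above the others were GDF3, PACSIN1, CALB1, TCF7L1 and SEMA3F. GDF3 had 64.5 and 59.8 CPM in DE(a), 12.6 and 8.56 CPM in APS, 2.14 and 1.67 CPM in MPS and 0.887 and 0.503 CPM in PPS. Of the 5, GDF3 and the semaphorin SEMA3F were also above the control (for SEMA3F 42.0 and 37.4 to 102 and 68.2 CPM, adjusted p = 0.00366, and 0.0937 without DE(a) replicate 1 and 0.0544 without control replicate 2). TCF7L1 stood at 70.1 and 49.2 CPM in DE(a), at 19.6 and 15.3 CPM in APS, 7.51 and 5.61 CPM in MPS and 11 and 9.57 CPM in PPS, and thus fell from the control in DE(a) to a level still above the others. CALB1, a calcium buffer, and PACSIN1, an endocytic adaptor, were not called against the control (adjusted p = 0.0921 and 0.56), and in DE(a) they had 52.7 and 46.1 CPM and 15.8 and 14.9 CPM. The Nodal antagonist LEFTY1, the Wnt antagonist SFRP1 and the Wnt receptor FZD5 also stood above the other 3 treatments, FZD5 with 128 and 119 CPM against 39.8 and 50.4 CPM in APS (1.47 ± 0.25, adjusted p = 0.00321). Against the control, LEFTY1 rose and SFRP1 fell, as given above. FZD5 had 110 and 114 CPM in the controls and was not called against them (adjusted p = 0.599).
The 84 lower genes included the Wnt ligands WNT5A, WNT5B and WNT6 and the homeobox genes CDX1, CDX2, HOXB3 and MSX1. WNT5A had 22.6 and 31.3 CPM in DE(a) and 208 and 217 CPM in APS (-2.96 ± 0.29, adjusted p = 5.06e-06), and WNT5B 11.3 and 14.0 CPM against 84.2 and 130 CPM (-3.06 ± 0.43). The stem cell receptor LGR5 had 5.53 and 10.1 CPM against 108 and 126 CPM (-3.89 ± 0.43), and TBX3, a T-box factor of mesoderm, 11.3 and 9.93 CPM against 62.2 and 65.9 CPM (-2.57 ± 0.26). The log2 fold change of DE(a) minus APS was -2.59 for CDX1 and -2.56 for MSX1, both of which rose from the control, and -2.91 for BMP4. The 5 furthest below were MSGN1, PAX2, HAPLN1, PGM5 and TNFRSF9. MSGN1, a factor of presomitic mesoderm, had 1 read in each DE(a) library and was at least 17.3-fold lower than in APS, at least 357-fold lower than in MPS and at least 493-fold lower than in PPS. PAX2, a kidney and neural factor, and PGM5, an adhesion-linked phosphoglucomutase relative, were at the floor in DE(a), at least 14.2-fold and 29.8-fold lower than in APS. TNFRSF9, a TNF receptor, had 0.415 and 0.59 CPM in DE(a) and 9.85 and 7.92 CPM in APS (-4.11 ± 0.61). Its rise from the control was lost without DE(a) replicate 2 (adjusted p = 0.0556) and control replicate 1 (0.11). HAPLN1, which links hyaluronan to proteoglycans, had 0.934 and 3.17 CPM in DE(a), 1 below and 1 above the controls at 1.49 and 2.82 CPM, and 70.5 and 59.2 CPM in APS (-4.97 ± 0.63).

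**Figure D5:**
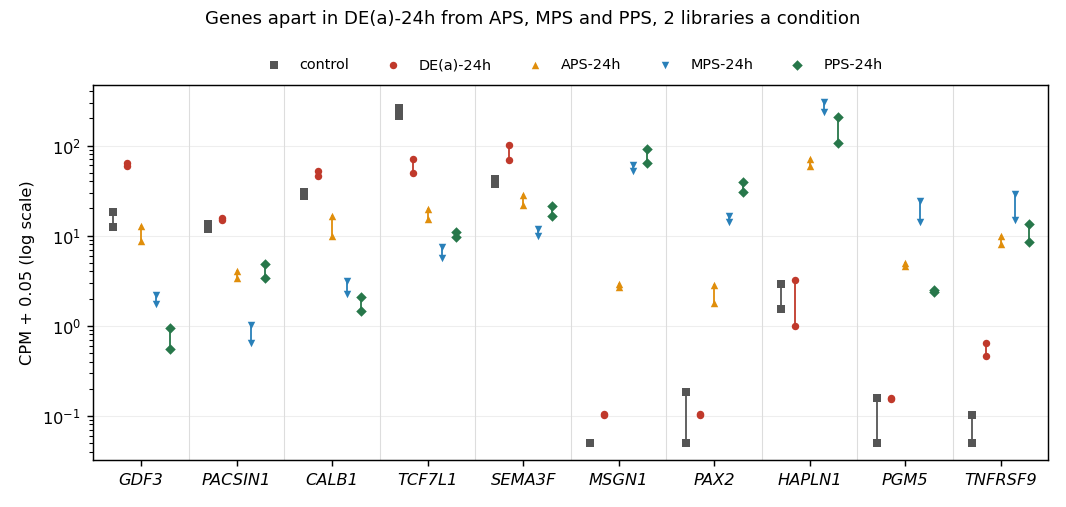
CPM + 0.05 on a log scale of the 5 genes furthest above and the 5 furthest below the other 3 PS treatments in DE(a), with 1 point per library and a line joining the 2 replicates. For GDF3 to SEMA3F the DE(a) points lie above those of APS, MPS and PPS, and for MSGN1 to TNFRSF9 below them.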

How the data were processed

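RNA of bulk ESI017 cultures was sequenced as stranded poly(A) libraries, 2 for each of 17 conditions. Per the labels and the study's methods, the authors quantified transcripts with Salmon (1.10.2) against GRCh38 with sequence and GC bias correction, and deposited estimated counts summed per gene identifier. These are not normalised for length, and reads of a symbol with several identifiers are split between them.

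Here the estimated counts were rounded, and 17895 of 37951 genes passed edgeR's filterByExpr. All 34 libraries were fitted with TMM scaling, 1 mean per condition and edgeR's quasi-likelihood test (edgeR 4.0.16, R 4.3.3), with p-values adjusted by Benjamini-Hochberg over all tested genes and a threshold of 0.05. SE is the log2 fold change divided by the root of F. CPM are counts over the library total, so their ratio can differ from the fitted fold. A group with at most 3 counts in each library was taken as at the floor. Symbols under several identifiers were also summed, which was added after the data were seen, and are named where used.

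Named are the 10 largest rises and 10 largest falls on the log2 scale (symbol under 1 identifier, at least 10 CPM in the higher group, groups not overlapping), the 5 largest of each in CPM, members of 30 gene lists, and the 5 highest and 5 lowest genes apart from APS, MPS and PPS. The members and lists were chosen with earlier results of these data known. FZD5 and WNT6, HOXB3 and others named from the set apart were chosen after their values were seen. Alternatives were RLE scaling, DESeq2 (1.42.0), no filter, a fold of at least 2, only the compared libraries, a replicate block and leaving out each library. The scripts were tested on simulated data. Some genes are not reported here.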

Additional observations from a re-analysis of the deposited data

Results flagged for a closer look

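The named genes apart from the other 24 h treatments differed between DE(a) and APS by a direct test (edgeR's quasi-likelihood test), as log2 fold changes of DE(a) minus APS. The higher genes were GDF3 at 2.57 (adjusted p = 0.0155), PACSIN1 at 2.07 (adjusted p = 0.00499), CALB1 at 1.92 (adjusted p = 0.00625), TCF7L1 at 1.79 (adjusted p = 0.000225) and SEMA3F at 1.79 (adjusted p = 0.0016). The lower genes were MSGN1 at -5.53 (adjusted p = 2.03e-05), PAX2 at -5.24 (adjusted p = 0.00617), HAPLN1 at -4.97 (adjusted p = 0.000154), PGM5 at -5.39 (adjusted p = 0.00118) and TNFRSF9 at -4.11 (adjusted p = 0.00216). The values of MSGN1, PAX2 and PGM5 depend on the prior count, since DE(a) was at the floor. These genes were selected for differing from APS, so the values are descriptions.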

How the results depend on the processing

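No called log2 fold change of a named gene changed sign under the alternatives run, but the balance of higher and lower calls turned in some. With a fold of at least 2 tested, 962 genes were called against the control, 25 against APS, 393 against MPS, 827 against PPS, 23 apart from all 3 and 141 list members. At this fold, 152 of the 274 calls of named genes against the control held. Without the filter on low counts, 570 were called against APS and 334 were apart. With only the compared libraries fitted, 3229 were called against the control, 1561 up and 1668 down, 73 were called against APS, 2439 against PPS and 51 were apart. DESeq2 called 259 against APS and 188 apart. Leaving out each library in turn gave 2216 to 2437 genes against the control, 38 to 93 against APS, 928 to 1167 against MPS, 2190 to 3323 against PPS, 34 to 99 apart and 203 to 227 list members; the causes were not tested. RLE scaling called 3410 against the control, 1781 up and 1629 down. Of 274 calls of named genes against the control, 270 held with DESeq2, 259 without the filter, 251 with only the compared libraries and 211 to 230 on leaving out a library.

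The replicate numbers follow the deposited tables, the first and its repeat, but were not taken to pair the samples, since not every pair of conditions correlated above 0.1: the deviations of DE(a) and control correlated at 0.205, and over 136 pairs of conditions at -0.074 to 0.34, with 43 over 0.1. With a replicate block, 4045 genes were called against the control, 194 against APS, 2078 against MPS, 4823 against PPS (2503 higher and 2320 lower), 150 apart and 289 list members.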
